A study of Drosophila melanogaster with 18 samples.

Results

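S2R+ cells depleted of the histone variant H2Av by RNA interference were kept for 24 hours at 14 °C or at 25 °C, and their transcript levels were compared on one-colour DNA microarrays. The comparison covered 3 arrays of H2Av RNAi cells at 14 °C and 3 arrays of H2Av RNAi cells at 25 °C. These are 6 of the 18 arrays of the series. Every non-control probe entered that the scanner software called well above background at 14 °C or at 25 °C on 2 or more of the 3 arrays, which gave 20454 of the 32162 probes on the array. Of these probes, 18779 met the criterion at both temperatures, 506 only at 14 °C and 1169 only at 25 °C. A current gene symbol could be assigned to 13944 of the 20454 probes (68.2%), representing 9406 genes. Values are log2 of the processed signal intensity after quantile normalisation, so that a difference of 1 is a 2-fold change, and changes are given as 14 minus 25 °C.

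S2R+ is an established line of cultured Drosophila melanogaster cells of blood cell character. All cultures of the series received double-stranded RNA, either against *His2Av*, the gene coding for H2Av, or against lacZ, a bacterial gene that Drosophila lacks and that serves as the control. After 4 days with the double-stranded RNA the cultures were moved to 14, 25 or 30 °C for 24 hours, which gave 6 groups of 3 arrays. Fewer cells were seeded where the later temperature was higher, so that densities at harvest would be comparable. The arrays of a group are described as biological replicates from separate replicate experiments.

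H2Av is the only H2A variant of the fly, and it combines functions that vertebrates divide between H2A.Z, found in nucleosomes next to transcription start sites, and H2A.X, which is phosphorylated at DNA breaks. In plants, nucleosomes with H2A.Z have been linked to the response of transcription to temperature. Insect cells have no temperature control of their own, so in the cold enzyme rates fall, membranes stiffen and proliferation slows, while at temperatures above the optimum heat shock factor switches on chaperone genes.

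The depletion rested on double-stranded RNA transcribed from parts of *His2Av*, which lies on chromosome 3R. The gene-specific parts of the primers listed by the study for both of its *His2Av* amplicons are shown because they define the RNA that was targeted, and all of their letters are in capitals since each belongs to the part that pairs with the gene. The first pair bounds the amplicon H2Av_1 and the second the amplicon H2Av_2. Which of these amplicons was used for the arrays is not given in the sources used here.
PR60: CGAAGGACTTGAAAGTGAAACG
PR61: TGTTTCATACTCAACCTCGCC
FB8: AGAAACAACTCGCACGCTC
FB9: CGAATCCTTGCCTGCTTTAC

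The targeted transcript was low in the H2Av RNAi cells at both temperatures. On the brighter *His2Av* probe the log2 signal intensities of replicates 1, 2 and 3 were 11.90, 13.65 and 11.61 in H2Av RNAi cells at 14 °C, against 15.26, 15.53 and 15.79 in lacZ RNAi cells at 14 °C. At 25 °C they were 11.92, 13.82 and 12.73 in H2Av RNAi cells, against 15.04, 16.41 and 16.22 in lacZ RNAi cells. At each temperature the groups did not overlap, and replicate 2 was the highest of the H2Av RNAi arrays at both temperatures. The H2Av minus lacZ difference was -3.14 at 14 °C (SE 0.52, limma adjusted p = 0.00223) and -3.07 at 25 °C (SE 0.52, limma adjusted p = 0.00101), which is 8.81-fold and 8.4-fold. A second probe of the gene showed 21.5-fold and 29-fold lower signals in H2Av RNAi cells. Between 14 and 25 °C the *His2Av* signal in H2Av RNAi cells did not pass the test (log2 change -0.44, SE 0.52, limma adjusted p = 0.648 on the brighter probe; 0.44, SE 0.60, adjusted p = 0.697 on the other). *Act5C*, a cytoplasmic actin used as a control transcript, had signals of 17.22, 16.99 and 17.03 at 14 °C and of 17.41, 17.18 and 17.44 at 25 °C, a change of -0.26 (SE 0.15, limma adjusted p = 0.276).

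The 18 arrays had 54.6 to 66.4% of their non-control probes well above background, the 6 compared arrays 58.4 to 63.6%, and no such spot was saturated. Within the H2Av RNAi 14 °C group the arrays correlated at 0.979 to 0.988, within the 25 °C group at 0.991 to 0.994, and between the groups at 0.969 to 0.982, over the probes and without independence among them. The median SD among replicates was 0.289 at 14 °C and 0.189 at 25 °C. No slide carried arrays of more than 1 group, so that slide and group cannot be told apart in any comparison given here. The number of arrays limits the precision. Of the blood cell markers, 11 of 11 were measured, and *crq*, *srp* and *pnr* had bright mean signals of 15.76, 13.82 and 14.57 at 14 °C and of 15.79, 14.26 and 14.55 at 25 °C. These were picked for their bright signals. Another marker of the list, *eater*, lay below the median signal of all probes at both temperatures. Of 9 markers of muscle, neurons, germ cells and epidermis, 7 were measured, 2 of them with bright signals. *elav*, a neuronal RNA-binding protein, had means of 11.97 and 12.02, and *Mef2*, a muscle transcription factor, of 13.31 and 12.75, at 14 and 25 °C.

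Cooling of the H2Av-depleted cells changed transcript levels in both directions in similar numbers. A probe was called where the limma adjusted p was below 0.05 and the change at least 2-fold, and 1583 of the 20454 probes were called (7.74%). The count fell to 684 with normexp background correction and to 791 with the deposited log2 matrix, both of which shrink the changes of dim probes. Signals were higher at 14 °C for 846 probes (4.14%) and lower for 737 probes (3.6%). These probes represented 895 genes, 459 with a probe higher at 14 °C and 438 with a probe lower at 14 °C. With each array scaled to its 75th percentile in place of quantile normalisation, 883 probes were higher and 495 lower, so that 64.1% of the called probes were higher, against 53.4% with quantile normalisation. Over all 20454 probes the median change was -0.02, with 75th percentile scaling 0.05.

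The rises reached further than the falls. Among probes higher at 14 °C the median change was 1.54 and the highest 4.95, with 210 probes changed at least 4-fold and 53 at least 8-fold. Among probes lower at 14 °C the median change was -1.32 and the lowest -3.37, with 74 probes changed at least 4-fold and 4 at least 8-fold. The 3 arrays of one temperature lay entirely above or below the 3 of the other for 7902 of all 20454 probes (38.6%), and for 837 of the 846 called higher and 725 of the 737 called lower. Without the threshold on fold change, 2974 probes had a limma adjusted p below 0.05, and 5740 an unadjusted p below 0.05.

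**Figure D1:**
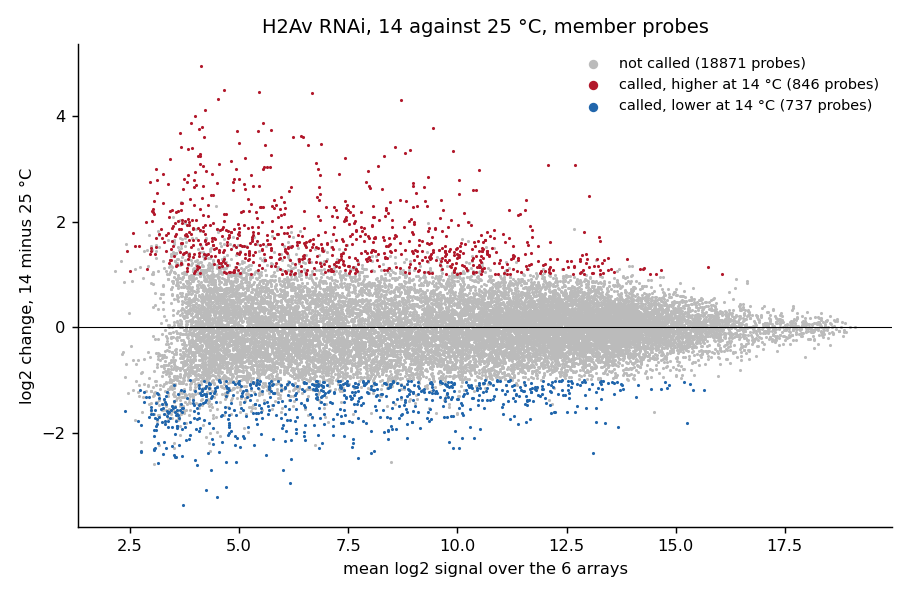
Log2 change (14 minus 25 °C) of the 20454 probes in H2Av RNAi cells against their mean log2 signal over the 6 arrays. Each point is a probe, with 846 called higher at 14 °C in red, 737 called lower in blue and the others in grey. The called probes are spread over both directions and lie mostly left of the median signal of 10.01.

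Probes with weak signals made up most of the calls, as seen in the plot of change against signal. The median log2 signal was 6.98 among probes called higher, 7.38 among probes called lower and 10.01 among all probes. In the dimmest 25% of the probes 7.12% were called higher and 5.75% lower, while in the brightest 25% 0.743% were called higher and 0.861% lower. For 134 of the 846 probes called higher (15.8%) the signal was not well above background on any 25 °C array, and for 123 of the 737 called lower (16.7%) on no 14 °C array. For named genes among these, the fold is given as a lower bound against the background floor of the processed signal. It is no bound under another background correction. Of the called probes, 186 of those higher entered the comparison only through the 14 °C arrays and 190 of those lower only through the 25 °C arrays, so that they had to differ between the temperatures.

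The strongest rises among named genes concerned enzymes of amino acid and collagen modification, a channel subunit and several genes coding for secreted proteins. For these genes, for the largest falls and for the bright genes further below, non-overlap of the groups was a condition of choice, not a result. *PH4alphaSG1* codes for an alpha subunit of prolyl 4-hydroxylase, the enzyme that hydroxylates prolines in collagen chains. Its log2 signals were 10.74, 10.49 and 11.40 at 14 °C, against 6.41, 6.49 and 6.79 at 25 °C. All 14 °C arrays were far above all 25 °C arrays, by 4.31 on average (SE 0.42, limma adjusted p = 2.61e-05), or 19.9-fold, with 3.88 on the gene's other probe. *PH4alphaNE1*, coding for a second such subunit, had signals of 8.09, 7.68 and 9.05 at 14 °C and of 4.32, 4.54 and 5.15 at 25 °C. The groups were again apart, with a change of 3.61 (SE 0.35, limma adjusted p = 2.61e-05), or 12.2-fold. Of 8 genes of this family on the array 4 were measured, and the 2 others were not called. *Tat*, coding for tyrosine aminotransferase, which starts tyrosine breakdown, had signals of 11.20, 10.89 and 11.93 at 14 °C, against 7.57, 7.34 and 7.78 at 25 °C. No array of one temperature came near those of the other, and *Tat* was 13.7-fold higher at 14 °C (log2 change 3.78, SE 0.30, limma adjusted p = 4.75e-06).

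*Jhbp15*, of the juvenile hormone binding protein family, reached 8.53, 8.58 and 9.59 at 14 °C, against 4.21, 4.33 and 4.84 at 25 °C. Its 14 °C arrays were all higher, by 4.44 on average (SE 0.49, limma adjusted p = 7.14e-05). *unc79*, coding for a subunit of the neuronal sodium leak channel complex, had signals of 7.11, 6.99 and 7.81 at 14 °C and of 4.13, 3.41 and 3.22 at 25 °C. The change was 3.72 (SE 0.28, limma adjusted p = 3.61e-06), or 13.1-fold, with a signal well above background on only 1 of the 25 °C arrays. *Acp53C14b*, which codes for a seminal fluid protein of the male accessory gland, was not well above background at 25 °C. Its signals were 6.47, 6.48 and 7.07 at 14 °C, against 2.35, 2.29 and 2.38 at 25 °C, so that it was at least 15.3-fold higher (limma adjusted p = 1.77e-05). *Ugt35B1*, coding for a UDP-glycosyltransferase, an enzyme class that attaches sugars to small molecules, was likewise below background at 25 °C and at least 9.96-fold higher at 14 °C (limma adjusted p = 3.3e-06). Of the 17 UDP-glycosyltransferase genes measured, 2 were called higher and 3 lower, where 4.15% of all 9406 genes were called higher and 3.6% lower, and their changes spread between -1.98 and 3.79.

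The remaining members of the 12 largest rises were *Grl36b*, a gustatory receptor-like gene, and 4 genes known by CG numbers. *CG8813* had the largest change among named genes, with signals of 7.30, 7.37 and 8.40 at 14 °C against 3.13, 3.64 and 2.93 at 25 °C, at least 21.9-fold (limma adjusted p = 3.61e-06). *CG14565* and *CG9021* rose by 3.75 and 3.63 and *Grl36b* by 3.49, while *CG12057*, dim at 25 °C, was at least 9.65-fold higher. The genes *unc79*, *Acp53C14b*, *Ugt35B1*, *CG8813*, *Grl36b* and *CG12057* entered the comparison only through the 14 °C arrays. They had to differ between the temperatures, so that their p-values are no independent test of a rise. After normexp background correction, which shrinks changes of dim probes, *Ugt35B1* and *CG12057* had changes of 0.79 and 0.83 and were no longer called. All 12 were also higher at 14 °C in lacZ RNAi cells, where the values ran between 1.96 for *unc79* and 4.03 for *Acp53C14b*.

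**Figure D2:**
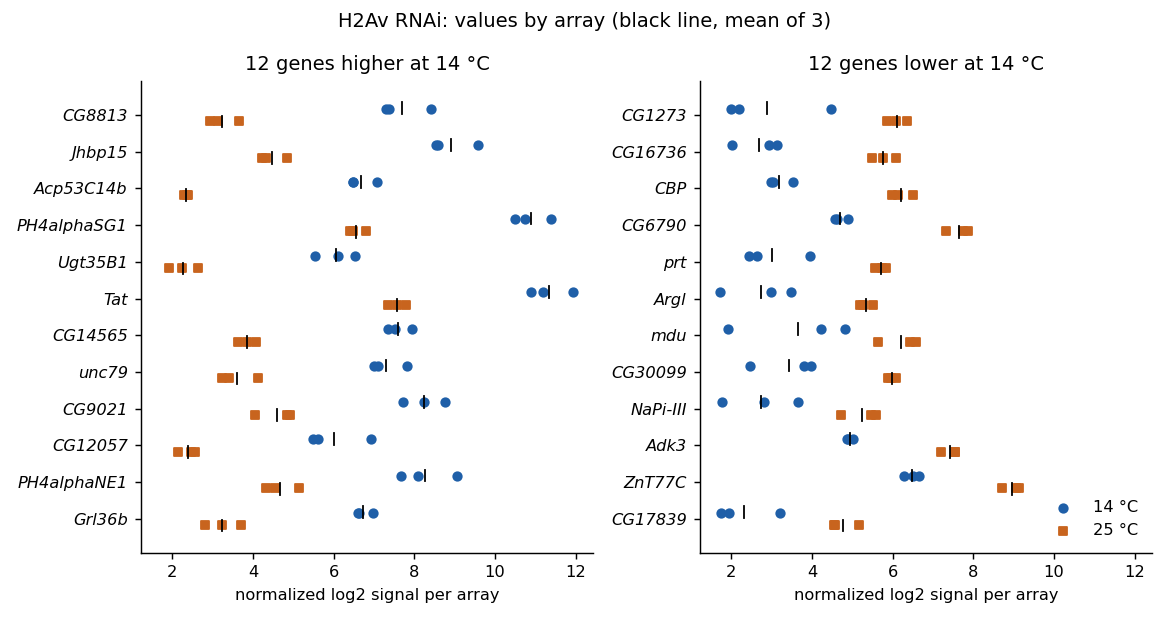
Normalised log2 signal of each H2Av RNAi array for the 12 named genes with the largest rises (left) and the 12 with the largest falls (right). Blue circles are 14 °C arrays, orange squares 25 °C arrays and black lines the means of 3. Only genes whose temperatures do not overlap were eligible for the 24, and the 14 °C values of *CG1273* and *mdu* are the most scattered.

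The largest falls were smaller and involved dimmer probes. *ZnT77C*, coding for a zinc transporter, had log2 signals of 6.51, 6.28 and 6.64 at 14 °C, against 9.12, 9.05 and 8.72 at 25 °C. Its 14 °C arrays were all lower, with a change of -2.49 (SE 0.26, limma adjusted p = 5.05e-05), or 5.6-fold. *CG6790* had signals of 4.63, 4.56 and 4.89 at 14 °C and of 7.75, 7.31 and 7.86 at 25 °C, a change of -2.95 (SE 0.35, limma adjusted p = 0.000118). *Adk3*, coding for an adenylate kinase, had signals of 4.89, 4.87 and 5.02 at 14 °C, against 7.55, 7.20 and 7.54 at 25 °C. All its 14 °C arrays were lower, with a change of -2.50 (SE 0.29, limma adjusted p = 0.000101), but the gene's other probe gave -0.28. The other 9 genes were *CG1273* (-3.22), *CG16736* (-3.09), *CBP* (-3.02), the vesicular transporter gene *prt* (-2.71), the argininosuccinate lyase gene *Argl* (-2.60), *mdu* (-2.56), *CG30099* (-2.55), the phosphate transporter gene *NaPi-III* (-2.51) and *CG17839* (-2.46). For *Argl* the other probe gave -0.69. All 9 had 14 °C means near the bottom of the signal range and fell by less than 2-fold after normexp background correction, where the values ran between -0.78 for *mdu* and -0.34 for *CG17839*. These 9 entered the comparison only through the 25 °C arrays, so that they had to differ between the temperatures. *mdu* also lost its call when 14 °C replicate 3, 25 °C replicate 2 or 25 °C replicate 3 was left out (limma adjusted p = 0.0811 to 0.118). In lacZ RNAi cells *CG1273*, *CBP*, *Argl*, *mdu*, *NaPi-III* and *ZnT77C* had smaller falls (-1.41 to -0.1) and were not called. Their 25 °C means in lacZ RNAi cells were 3.22, 3.50, 4.82, 4.08, 2.67 and 6.84. In H2Av RNAi cells they were 6.11, 6.21, 5.33, 6.21, 5.25 and 8.96, so that the smaller falls started from lower signals. The others, *CG6790*, *Adk3*, *CG16736*, *prt*, *CG30099* and *CG17839*, were called lower in lacZ RNAi cells too, with values between -3.37 and -2.3.

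Because weak probes dominated these lists, the genes with a signal above the median and well above background on all 6 arrays were also ranked, a view chosen after the values had been seen. Among these the highest rise was that of *CG13694*, with 13.88, 13.04 and 13.95 at 14 °C, against 10.81, 10.29 and 10.53 at 25 °C. Its 14 °C arrays were all higher, by 3.08 (SE 0.25, limma adjusted p = 6.63e-06), or 8.45-fold. *insc*, coding for the asymmetric cell division factor Inscuteable, had closely spaced signals of 11.78, 11.64 and 11.73 at 14 °C and of 9.07, 9.31 and 8.99 at 25 °C. The gap of 2.59 (SE 0.16, limma adjusted p = 6.17e-07) was many times the spread within either group, and another probe gave 2.55. *nvy*, coding for a transcriptional corepressor, had a change of 2.61, *unc-5*, coding for a netrin receptor, of 1.93, and *mthl5*, coding for a G protein-coupled receptor, of 1.91. The 2 other *unc-5* probes gave 0.5 and 1.06. For *Kap-alpha3*, coding for an importin alpha, 1 probe gave 2.22 while its other 3 probes gave -0.71 to -0.12, and for *UGP*, coding for the enzyme that makes UDP-glucose, 1 probe gave 1.99 while the others gave 0.06 and 0.08.

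Among the bright falls *Hsp22*, coding for a small heat shock protein of mitochondria, came first, with signals of 11.31, 12.02 and 12.38 at 14 °C against 13.88, 14.61 and 14.39 at 25 °C. The groups were apart, with a change of -2.39 (SE 0.55, limma adjusted p = 0.00933), or 5.24-fold. *Orc6*, coding for a subunit of the origin recognition complex, had signals of 9.48, 8.97 and 9.61 at 14 °C, against 11.20, 11.18 and 11.35 at 25 °C, and *Mcm2*, coding for a subunit of the replicative helicase, of 12.61, 12.29 and 12.52 at 14 °C, against 14.43, 14.06 and 14.36 at 25 °C. Both genes were lower on every 14 °C array, by 3.7-fold and 3.5-fold (limma adjusted p = 0.000266 and 1.77e-05). *GstE11*, a glutathione S-transferase gene, had a change of -2.10 and *spd-2*, which codes for a centrosome protein, of -1.84. *Ldh*, coding for lactate dehydrogenase, had signals of 14.21, 14.62 and 14.22 at 14 °C and of 15.95, 16.29 and 16.25 at 25 °C. It was lower on all 14 °C arrays (log2 change -1.81, SE 0.55, limma adjusted p = 0.0391), but lost its call whichever of the 6 arrays was left out, with values between -1.95 and -1.75 and adjusted p between 0.0666 and 0.106.

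The genes of DNA replication formed the group with the highest share of falls. Before a cell copies its DNA, the origin recognition complex marks origins, Cdc6 and Dup load the MCM helicase there, and GINS and Cdc45 turn it into the active form that DNA polymerases follow. Of the 37 S phase genes listed by the study, 36 were measured, 1 probe for each gene. None was called higher, 19 were called lower, and 36 of 36 had a negative change, with a median of -1.10. Among all 9406 genes 390 were called higher (4.15%) and 339 lower (3.6%), with a median of -0.02. Taking the arrays by replicate number, the S phase median was -1.15, -0.97 and -0.95 in the 3 pairs, and over 12 alternative settings it lay between -1.18 and -0.96, with 16 to 21 genes called lower.

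**Figure D3:**
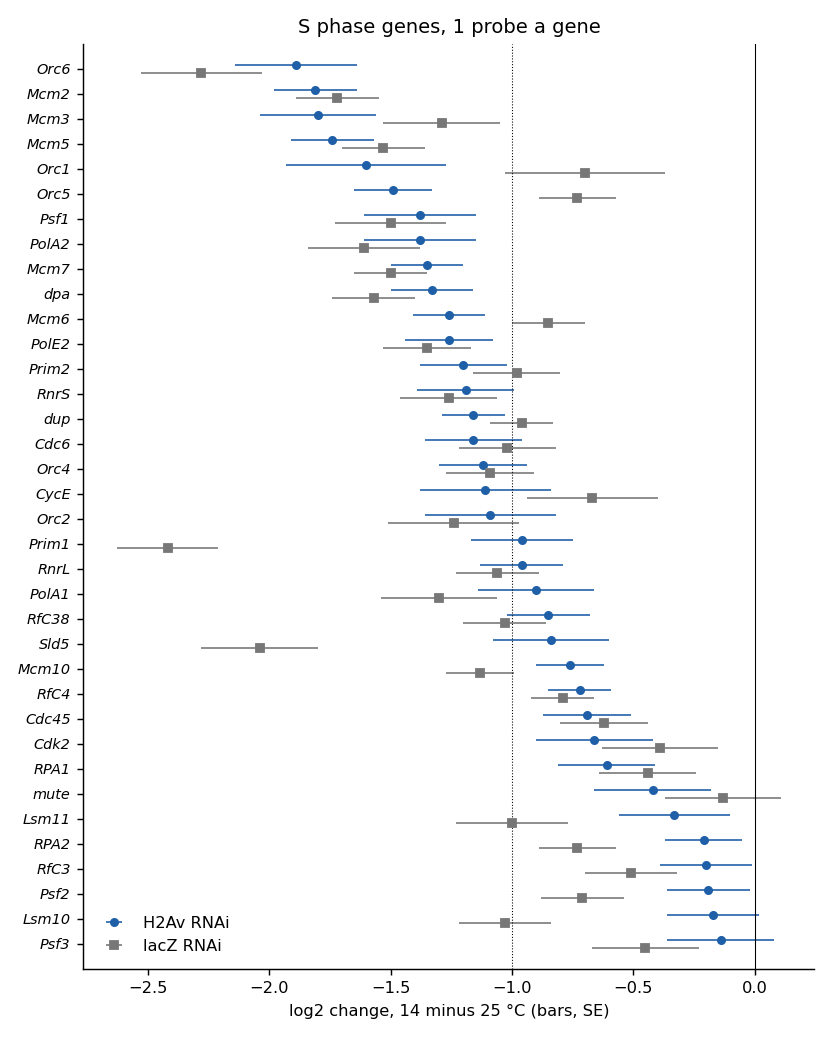
Log2 change (14 minus 25 °C) of 36 S phase genes, with blue circles for H2Av RNAi cells, grey squares for lacZ RNAi cells and bars for the SE. The dotted line marks a 2-fold fall; all blue circles lie left of 0, 19 of them called lower.

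Of the machinery that marks and loads origins every measured gene was called lower, as shown in the plot of S phase genes. All 5 measured origin recognition complex genes were called lower, with changes between -1.89 for *Orc6* and -1.09 for *Orc2*, and so were 6 of 6 genes of the MCM helicase, between -1.81 for *Mcm2* and -1.26 for *Mcm6*. *Mcm5* had signals of 10.92, 10.51 and 10.95 at 14 °C, against 12.72, 12.36 and 12.51 at 25 °C. *Orc5* had signals of 8.06, 7.68 and 8.05 at 14 °C, against 9.61, 9.26 and 9.37 at 25 °C. In both cases the 14 °C arrays all lay more than 2-fold below the lowest 25 °C array, with changes of -1.74 and -1.49 (SE 0.17 and 0.16, limma adjusted p = 3.01e-05 and 7.2e-05). *Orc2* lost its call when 14 °C replicate 2, 25 °C replicate 1 or 25 °C replicate 3 was left out (changes of -1.06 to -0.86, limma adjusted p = 0.051 to 0.0668), and with normexp background correction, where *Orc4* at -0.98 also stayed under 2-fold.

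Other parts of the replication machinery had fewer called genes. Of the 4 GINS genes 1 was called lower (*Psf1*, -1.38), and the 4 ranged between -1.38 and -0.14. Of the 4 genes of DNA polymerase alpha and primase, which start each new strand, 2 were called lower (*PolA2*, -1.38, and *Prim2*, -1.20). None of the 3 genes each of replication factor A, which coats single-stranded DNA, and replication factor C, which loads the sliding clamp, was called, with changes between -0.85 and -0.20. *RnrS*, coding for the small subunit of ribonucleotide reductase, which makes the DNA precursors, had signals of 14.72, 14.85 and 14.84 at 14 °C and of 16.06, 15.84 and 16.10 at 25 °C. It was lower on every 14 °C array (log2 change -1.19, SE 0.20, limma adjusted p = 0.00132), while *RnrL* for the large subunit had a change of -0.96. *CycE*, coding for the cyclin that drives entry into S phase, had a change of -1.11 (limma adjusted p = 0.0123), and lost its call without 14 °C replicate 1 or 25 °C replicate 3 (limma adjusted p = 0.0536 to 0.0547) and with normexp background correction (-0.95).

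Genes of mitosis were called lower in a few cases. Of the 35 M phase genes listed by the study, 5 were called lower (14.3%, against 3.6% of all genes) and none higher. A negative change was seen for 31, and the median was -0.48. The called genes were *thr* (-1.22), needed for sister chromatid separation, *Mis12* (-1.19) and *Nuf2* (-1.02), both coding for kinetochore proteins, *cid* (-1.17), the histone H3 variant of centromeres, and *Zwilch* (-1.01), part of the spindle checkpoint. *thr* had signals of 11.12, 10.71 and 10.84 at 14 °C, against 12.28, 11.90 and 12.15 at 25 °C. *cid* had signals of 10.07, 10.45 and 10.40 at 14 °C, against 11.55, 11.35 and 11.52 at 25 °C. Both were separated between the temperatures without overlap (limma adjusted p = 0.000373 and 0.000858). *Nuf2* and *Zwilch* stayed just under 2-fold when 14 °C replicate 2, 25 °C replicate 1 or 25 °C replicate 3 was left out, *Zwilch* also without 14 °C replicate 3, and both did with normexp background correction (changes of -0.98 to -0.90). *CycB*, coding for the main mitotic cyclin, had a change of 0.01 (SE 0.37). Whether the 2 lists differ in their shift was not tested, and a smaller share of cycling cells and less RNA per cell cannot be told apart in these bulk samples.

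Among genes around histones and DNA damage the shares called lower were near the 3.6% of all genes. Of 32 genes for histone variants, histone chaperones and the exchange of H2Av, 2 were called lower (6.25%): *cid* and the gene for the large subunit of the chromatin assembly factor CAF-1, which works behind the replication fork (log2 change -1.28, SE 0.22, limma adjusted p = 0.00164). Both genes of the FACT chaperone had changes of -0.81, below 2-fold. Of 22 genes of the DNA damage response and apoptosis 1 was called (4.55%), *p53*, with signals of 11.60, 11.73 and 11.58 at 14 °C against 12.77, 12.85 and 12.43 at 25 °C. All its 14 °C values were lower, by -1.05 on average (SE 0.19, limma adjusted p = 0.00259), and without 25 °C replicate 2 the change was -0.96, just under 2-fold.

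**Figure D4:**
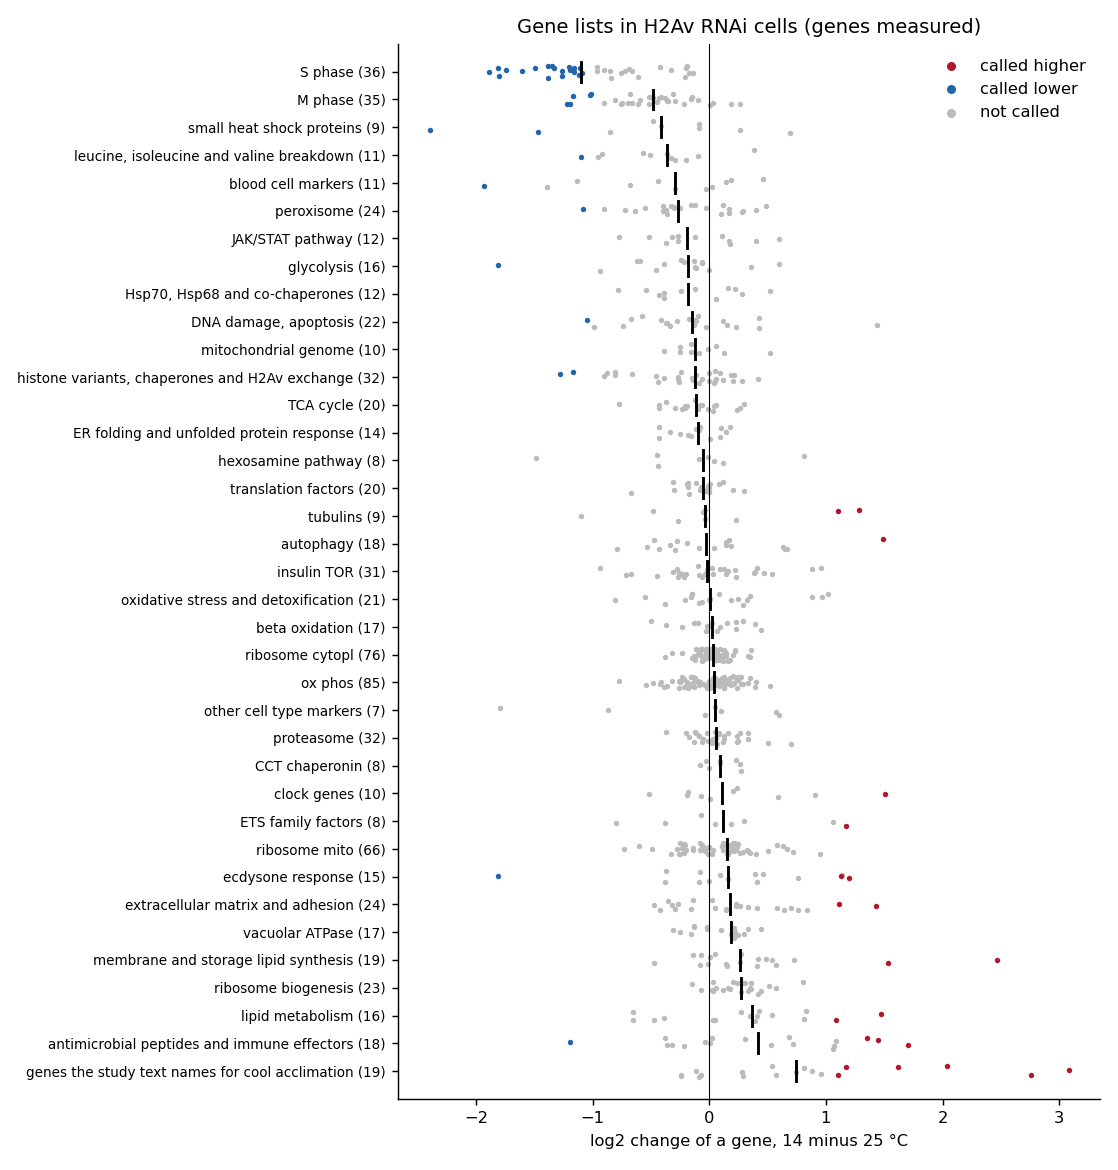
Log2 change (14 minus 25 °C, H2Av RNAi) of the genes of 37 lists, 1 point per gene, with the number of genes measured in parentheses. Red points were called higher, blue points lower and grey points not called, and black lines are medians; S phase lies lowest with a median of -1.10 and the genes named by the study for cool acclimation highest with 0.74.

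Genes that the study's text names for cool acclimation had the highest median of the lists, and since the study chose them from its own measurements this is no independent evidence of their direction. Of 20 genes 19 were measured, 6 were called higher (31.6%, against 4.15% of all genes) and none lower, with a median of 0.74. *CG32944* had signals of 9.14, 8.94 and 9.79 at 14 °C, against 6.35, 6.58 and 6.65 at 25 °C. *Akh*, coding for adipokinetic hormone, the insect counterpart of glucagon, had signals of 9.05, 9.44 and 9.17 at 14 °C, against 7.30, 7.27 and 6.98 at 25 °C. *smp-30* had signals of 12.42, 12.33 and 12.44 at 14 °C, against 10.85, 10.78 and 10.69 at 25 °C. None of these groups overlapped, and the changes were 2.76, 2.04 and 1.62 (SE 0.30, 0.30 and 0.12; limma adjusted p = 7.02e-05, 0.000598 and 2.82e-06). *Ets21C*, coding for an ETS transcription factor, had a change of 1.17 (limma adjusted p = 0.00282), and *CG13694* is described above. *betaTub97EF*, coding for a beta-tubulin, had a change of 1.10 (limma adjusted p = 0.0447), but lost its call whichever of the 6 arrays was left out (0.92 to 1.21, adjusted p = 0.073 to 0.167).

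Chaperone genes were mostly not called. Of 9 small heat shock protein genes 2 were called lower, *Hsp22* and *Hsp23* (22.2%, against 3.6% of all genes), and the median was -0.41. *Hsp23* had signals of 9.06, 9.57 and 10.58 at 14 °C, against 10.83, 11.62 and 11.15 at 25 °C. Its groups did not overlap, but the gap between 14 °C replicate 3 and the lowest 25 °C array was small (log2 change -1.47, SE 0.44, limma adjusted p = 0.0396), and the call was lost when any array except 14 °C replicate 3 was left out (adjusted p = 0.0595 to 0.152). None of the 12 genes for Hsp70, Hsp68 and their co-chaperones was called, and neither was any of the 14 genes for protein folding in the endoplasmic reticulum or of the 8 for the CCT chaperonin. *Hsp83* and *Hsc70-4*, coding for abundant constitutive chaperones, had changes of 0.06 and -0.12.

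In lists of immunity and lipid genes 16.7 and 10.5% of the genes were called higher, against 4.15% of all genes. Of 18 genes for antimicrobial peptides and immune effectors, 3 were called higher, *PGRP-SB1* (1.70), coding for a peptidoglycan recognition protein, and the antimicrobial peptide genes *CecA1* (1.45) and *AttC* (1.35), while the recognition protein gene *PGRP-SD* was called lower (-1.19; 5.56% of the list, against 3.6% of all genes). *CecA1* had signals of 10.23, 10.94 and 11.19 at 14 °C and of 8.82, 9.93 and 9.26 at 25 °C. Its groups were close together, and the call was lost without any 1 of 4 arrays: 14 °C replicate 2 or 3, or 25 °C replicate 1 or 3 (1.19 to 1.41, limma adjusted p = 0.0665 to 0.0997). Of 19 genes for membrane and storage lipid synthesis, 2 were called higher: *FASN2*, coding for a fatty acid synthase, and *Pcyt2*, which makes the activated ethanolamine of phosphatidylethanolamine. *FASN2* had signals of 6.67, 7.53 and 7.35 at 14 °C and of at most 5.0 at 25 °C, and was 5.53-fold higher at 14 °C with no overlap (limma adjusted p = 0.00223). *Pcyt2* (1.53) lost its call whichever array was left out (limma adjusted p = 0.067 to 0.0934). *AttC* lost its call without 14 °C replicate 1 or 3 or 25 °C replicate 1 or 3 (limma adjusted p = 0.0662 to 0.138), and *PGRP-SD* without 14 °C replicate 1 or 25 °C replicate 2 (0.0712 to 0.0771). With normexp background correction *PGRP-SB1*, *AttC*, *PGRP-SD* and *Pcyt2*, all with weak signals, had changes of 0.43, 0.29, -0.47 and 0.80 and were not called. *FASN2* kept its call there, but its change shrank to 1.03, just above 2-fold. *Desat1*, coding for the desaturase that makes unsaturated fatty acids, had a change of -0.47 (SE 0.30, limma adjusted p = 0.332).

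Further called genes were spread over several other lists. These were *Atg10* among 18 autophagy genes (1.49, limma adjusted p = 0.000606), *Clk* among 10 clock genes (1.51), *Hr39*, a nuclear receptor gene (1.13), and *E23*, an ABC transporter gene (1.20), among 15 genes of the ecdysone response, which also held the fall of *Ldh*, *scb* for an integrin alpha subunit (1.43) and *trol* for perlecan (1.11) among 24 genes of the extracellular matrix and adhesion, *Acat2* among 24 peroxisome genes (-1.08), *Acsf3* and *hll*, both acyl-CoA synthetase genes, among 16 genes of lipid metabolism (1.47 and 1.09), and *Bcat*, which starts the breakdown of branched-chain amino acids, among 11 genes of that pathway (-1.10). Called higher were 5.56% of the autophagy, 10% of the clock, 13.3% of the ecdysone, 8.33% of the matrix and 12.5% of the lipid metabolism genes. Called lower were 4.17% of the peroxisome, 6.67% of the ecdysone and 9.09% of the branched-chain amino acid genes. Of all genes 4.15% were called higher and 3.6% lower, so that the autophagy and peroxisome shares were near those of all genes. *Atg10*, *Hr39*, *E23* and *Acsf3* kept their calls whichever array was left out. *Bcat* and *hll* lost theirs in every such case (limma adjusted p = 0.0529 to 0.0842 and 0.0505 to 0.135), *scb* in 5 of 6 (all but 14 °C replicate 3, 0.0928 to 0.128) and *Clk* without 14 °C replicate 1 or 25 °C replicate 2 or 3 (0.0596 to 0.0768). *Acat2* stayed under 2-fold without 14 °C replicate 1 (-0.89). Of 9 tubulin genes *alphaTub67C* (1.28) was called besides *betaTub97EF* (22.2% of the list, against 4.15% of all genes). *alphaTub67C* lost its call without 14 °C replicate 3 or 25 °C replicate 1 (limma adjusted p = 0.0749 to 0.0758). *Clk*, *hll* and *alphaTub67C*, all dim, had changes of 0.36, 0.32 and 0.54 with normexp background correction and were not called. With the replicate number as a block, *scb* and *AttC* were the only genes followed individually that lost their calls (limma adjusted p = 0.0748 and 0.05).

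Of the 11 blood cell markers 1 was called, lower at 14 °C (9.09%, against 3.6% of all genes). *eater*, coding for a phagocytic receptor for bacteria, had signals of 6.85, 7.57 and 8.18 at 14 °C, against a lowest value of 9.06 and a mean of 9.47 at 25 °C. All 14 °C arrays were lower (log2 change -1.93, SE 0.40, limma adjusted p = 0.00554), or 3.82-fold.

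Of all 9406 genes 4.15% were called higher and 3.6% lower. Calls were rarer among bright probes, with 0.743% higher and 0.86% lower in the brightest 25%. Several lists of energy metabolism and protein turnover had no called gene in either direction. Whether they differ from other genes of equal signal was not tested. This applied to 85 genes of oxidative phosphorylation, 66 of mitochondrial and 76 of cytoplasmic ribosomes, 32 of the proteasome, 31 of insulin and TOR signalling, 20 of the TCA cycle, 17 of beta oxidation, 17 of the vacuolar ATPase and 20 translation factors. The lists of 12 JAK/STAT genes, 21 genes of oxidative stress and detoxification, 8 of the hexosamine pathway and 10 of the mitochondrial genome had no call either. All 23 genes of ribosome biogenesis stayed uncalled too, although 21 had a positive change, with a median of 0.27. Of the 472 entries of the 17 lists without a limma call, chaperone lists included, 51 had an unadjusted p below 0.05 and 17 an adjusted p below 0.05 with a change under 2-fold. Of all 20454 probes, 5740 had an unadjusted limma p below 0.05 and 2974 an adjusted p below 0.05 at any fold. Of 16 glycolysis genes *Ldh* was the only one called. The plot of gene lists shows how close most of these medians were to 0.

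Probes of the same gene usually moved together. Of the called genes with several probes, 318 in all, 260 had every probe on the same side of 0 (81.8%), and 86 had every probe called in the same direction. Among 2744 uncalled genes with several probes, 67.8% had every probe on the same side. Just 2 genes had probes called in both directions. For *Alh*, coding for a chromatin protein, the probe designed to transcript RE had signals of 9.32, 9.37 and 9.51 at 14 °C, against 7.72, 7.51 and 7.87 at 25 °C. A probe designed to its transcript RA had signals of 7.42, 6.52 and 5.69 at 14 °C, against 8.09, 7.60 and 7.71 at 25 °C. The *Alh* changes were thus 1.70 and -1.26. For *trol*, coding for the basement membrane proteoglycan perlecan, probes named for transcript RF gave 1.11 and 1.28 on bright signals, and -1.54 on a dim one. The call of the first of these was lost without 14 °C replicate 2 or 3 or 25 °C replicate 1 or 3 (0.79 to 1.15, limma adjusted p = 0.0806 to 0.18).

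The design also asks whether cells with normal H2Av react to cooling in the same way. The lacZ RNAi cells at 14 and 25 °C bear on this with arrays of their own, without deciding it. The H2Av RNAi cells were not free of H2Av, since the study reports that part of the protein remained after depletion. Most changes had the same direction. On the same 20454 probes, 2547 were called in lacZ RNAi cells (12.5%), 1186 higher and 1361 lower at 14 °C. Of the 846 probes called higher in H2Av RNAi cells, 792 had a positive change in lacZ RNAi cells (93.6%), 373 were called higher there too (44.1%) and 2 were called lower. Of the 737 called lower, 693 had a negative change in lacZ RNAi cells (94.0%), 424 were called lower there too (57.5%) and 1 was called higher. In the reverse direction the shares called were smaller. Of the 1186 probes called higher in lacZ RNAi cells, 92.6% had a positive change in H2Av RNAi cells and 31.5% were called higher. Of the 1361 called lower in lacZ RNAi cells, 94.7% had a negative change in H2Av RNAi cells and 31.2% were called lower. Over all probes 67.8% had the same sign in both, and the changes correlated with a Pearson r of 0.55 and a Spearman rho of 0.51 across probes, which are not independent replicates.

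**Figure D5:**
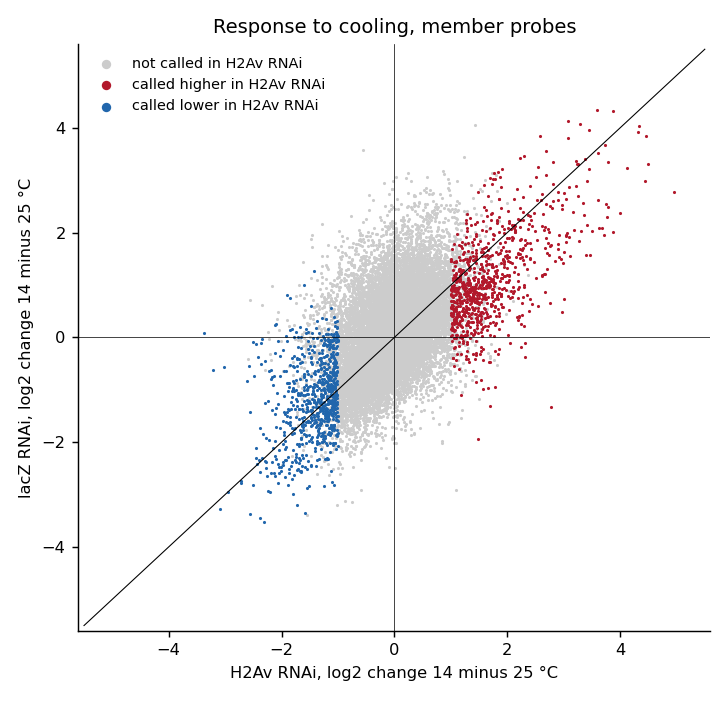
Log2 change (14 minus 25 °C) of each of the 20454 probes in H2Av RNAi cells (horizontal) and in lacZ RNAi cells (vertical), with equal changes on the diagonal. Red points were called higher in H2Av RNAi cells, blue points lower; most lie in the upper right and lower left quadrants, with 93.6 and 94.0% on the same side of 0 in both cell populations.

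A set of probes chosen by its change in one cell population had a smaller change in the other, whichever was used for the choice. The 215 probes with a rise of 2 or more in H2Av RNAi cells had a median of 2.44 there and of 1.90 in lacZ RNAi cells, whereas the 382 probes with such a rise in lacZ RNAi cells had a median of 0.96 in H2Av RNAi cells and of 2.35 in lacZ RNAi cells. The 87 probes with a fall of 2 or more in H2Av RNAi cells had medians of -2.23 there and -1.38 in lacZ RNAi cells, and the 179 with such a fall in lacZ RNAi cells had -1.40 in H2Av RNAi cells and -2.33 in lacZ RNAi cells. The lacZ RNAi 25 °C arrays had a larger spread, with a median SD of 0.397 against 0.192 for the lacZ RNAi 14 °C arrays, and replicate 1 had the lowest array weight, 0.114. Without that array the lacZ RNAi changes had the same sign for 95.6% of the probes called higher in H2Av RNAi cells and for 93.4% of those called lower.

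The difference between the responses themselves was tested as an interaction of RNAi and temperature. No probe was called (0%). The smallest limma adjusted p was 0.148, and 2478 of the 20454 probes had an unadjusted p below 0.05. The lack of a called probe does not show that the responses were equal. Other settings gave 18 calls (array quality weights) or 7 (no filter on dim probes). The precision of this test was limited, since the median SE of an interaction was 0.40 and the median 95% interval extended 0.86 to either side; since calls used the adjusted p, differences well above 2-fold could also miss the threshold. *CG32137*, picked out after the values had been seen, had changes of 1.49 in H2Av RNAi cells and -1.94 in lacZ RNAi cells on a dim probe (difference 3.42, limma adjusted p = 0.148), and of -0.04 and -0.06 on its other probe. Its dim probe passed with array quality weights (adjusted p = 0.044), without a filter on dim probes (0.0491) and without H2Av RNAi 14 °C replicate 2 (0.031). *CG34008* rose in H2Av RNAi cells, with 11.15, 11.05 and 11.48 at 14 °C against 8.97, 9.16 and 9.07 at 25 °C, a change of 2.17. In lacZ RNAi cells the change was 0.40 (difference 1.77, SE 0.31, limma adjusted p = 0.206, and 0.044 with array quality weights). Its means in H2Av and lacZ RNAi cells were 11.23 and 10.77 at 14 °C, and 9.06 and 10.37 at 25 °C. The 2 cell populations thus differed more at 25 °C than at 14 °C. *ZnT77C*, with -2.49 in H2Av RNAi cells, had -0.74 in lacZ RNAi cells (difference -1.74, SE 0.37, limma adjusted p = 0.206). Its means in H2Av and lacZ RNAi cells were 6.48 and 6.10 at 14 °C, and 8.96 and 6.84 at 25 °C.

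For the replication genes the responses in both cell populations were of similar size. In lacZ RNAi cells 21 of the 36 S phase genes were called lower, with a median of -1.03, and 16 with a median of -0.95 when 25 °C replicate 1 was left out. None of the 36 passed the interaction test. Values of single genes differed more in size than the medians, for example -0.96 in H2Av RNAi cells and -2.42 in lacZ RNAi cells for the primase gene *Prim1* (difference 1.46, limma adjusted p = 0.206), and -0.84 in H2Av RNAi cells and -2.04 in lacZ RNAi cells for the GINS gene *Sld5* (difference 1.19, limma adjusted p = 0.332). In the M phase list, lacZ RNAi cells had 5 genes called lower and 1 called higher, *CycB* (1.26, against 0.01 in H2Av RNAi cells; difference -1.26, limma adjusted p = 0.387). Of the genes named for cool acclimation 10 were called higher in lacZ RNAi cells, with a median of 1.08.

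Warming of H2Av RNAi cells to 30 °C was compared with the same 25 °C arrays, so that its values are set beside those of cooling without a further test. *CG13694* had 3.08 at 14 °C and -3.41 at 30 °C, each relative to 25 °C, *PH4alphaSG1* 4.31 and -1.99, and *betaTub97EF* 1.10 and -2.44. *Hsp23* had -1.47 at 14 °C and 3.39 at 30 °C, and *Hsp22* -2.39 and 1.13. *Argl* had negative values on both sides, -2.60 at 14 °C and -2.42 at 30 °C, with -0.69 at 14 °C on its other probe. *smp-30*, with 1.62 at 14 °C, had 0.02 at 30 °C. The median of the S phase genes was -1.10 at 14 °C and 0.35 at 30 °C, and that of the small heat shock protein genes -0.41 and 1.13.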

How the data were processed

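Total RNA was labelled with Cy3 and hybridised to Agilent one-colour arrays (45020 spots, 1417 of them controls). The authors deposited scanner tables made with Agilent Feature Extraction 10.7.3.1, holding processed, median and background intensities with flags, and a matrix of quantile-normalised log2 values. The processed intensity is background-subtracted, with low values replaced by a surrogate, so that folds of dim probes depend on this step. Which signal entered the deposited log2 matrix is not given in the sources used here (Spearman 0.986 to 0.997 with the median signal, 0.968 to 0.987 with the processed signal). No deposited value column was left unused for lack of a sample.

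Processed signals of all non-control spots were put on the log2 scale and quantile normalised over the 18 arrays. The median over the spots of each probe was then taken, leaving out spots with outlier flags (42 to 78 per array). A linear model with 6 group means was fitted in limma 3.58.1 (R 4.3.3) to all arrays, with Benjamini-Hochberg adjustment over 20454 probes. At-least folds set the dim group at the lowest signal well above background on each array, or the probe's own if higher. Symbols came from a RefSeq gene table, matched by locus tag, synonym or transcript accession (19518 of 32162 probes matched 1 gene, 157 several, 12485 none). For a gene list, 1 probe per gene was used. Named genes were the 12 largest rises and the 12 largest falls among called probes with 1 symbol whose groups do not overlap, *His2Av*, *Act5C*, and from each list up to 2 called genes of largest change and 2 of highest signal; any other gene was picked with its values in view. Genes, lists and tests were chosen with earlier results of these data known. The script was tested on simulated data.

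Arrays with the same replicate number lay at the same position of their slides, and their deviations from the group means correlated at 0.529, 0.341 and 0.312, against -0.341 to -0.054 for other pairs, so that the numbers were taken to pair the samples and a fit with the replicate as a block was added. Further alternatives were 75th percentile scaling, the deposited log2 matrix, other filters, array weights, a fit on 6 arrays, a stricter threshold, leaving out each array, and normexp (offset 50), applied to median intensities because the deposited tables used here held no mean signal column. Leaving out both arrays numbered 2 was added after seeing the data.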

Additional observations from a re-analysis of the deposited data

How the results depend on the processing

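Each of the 1583 probes called between 14 and 25 °C in H2Av RNAi cells kept its direction under every alternative that measured it. With normexp background correction 684 probes were called (400 higher, 284 lower), 646 of them shared with the 1583, and with the deposited log2 matrix 791 (458 higher, 333 lower), 734 shared. Both settings shrink the changes of dim probes. At an adjusted p below 0.01, 937 were called (516 higher, 421 lower), and without both arrays numbered 2, an alternative chosen after seeing the data, 1025 (516 higher, 509 lower); this ended the calls of *Hsp22*, *eater*, *E23*, *Hr39*, *Acsf3*, *GstE11*, *Mis12* and *NaPi-III* among others. With 75th percentile scaling 1378 were called, 495 of them lower, and with only probes well above background on all 6 arrays 1107. The replicate block gave 1700 (894 higher, 806 lower), 1506 shared, and no interaction call; among the genes followed one by one it ended the calls of *scb* and *AttC* alone. Leaving out 1 array gave 1167 to 1422 probes (633 to 777 higher, 534 to 703 lower). In lacZ RNAi cells 1499 were called with normexp, 1686 with the deposited matrix and 1465 at an adjusted p below 0.01, and 1748 to 3751 with 1 array left out. The interaction had 7 calls without a filter on dim probes, 18 with array weights and 0 to 2 with 1 array left out. Of 91 genes followed that were called, 21 lost the call with some array left out and 23 under normexp or the deposited matrix. Reversals were limited to changes that had not passed the test: *Act5C*, log2 change 14 minus 25 °C, had 0.04 and 0.06 on its probes with 75th percentile scaling, and *His2Av* 0.06 without 25 °C replicate 2 and, on the second probe, -0.39 without 14 °C replicate 2, where leaving out any 1 array gave -1.07 to 0.06 and -0.39 to 1.03. Depth in the sense of signal over background limits the comparison most for the dimmest probes.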
